A study of Mus musculus with 9 samples.

Results

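The dual-specificity MAP kinase phosphatases are enzymes that remove the phosphates from both the threonine and the tyrosine of an activated MAP kinase. The genes described here were 10 of them, *Dusp1*, *Dusp2*, *Dusp4*, *Dusp5*, *Dusp6*, *Dusp7*, *Dusp8*, *Dusp10*, *Dusp14* and *Dusp16*, found by symbol among the 23332 gene rows of the expression files. All 10 had their own row, no member was listed at exactly 0 in any sample, and all 10 were among the 11339 rows that passed the filter on low values. RNA was sequenced from FVB MOE cells, an oviductal epithelial line from FVB mice that is described as monoclonal and secretory, so that all samples came from the same clone. Every sample was starved of hormone for 48 h in stripped medium and then treated for 24 h, with 0.1% DMSO as solvent in all samples. The solvent was given alone (DMSO) or with 1 nM of the estrogen 17-beta-estradiol (E2). The third condition received it with 100 nM of the estrogen receptor modulator 4-hydroxytamoxifen (4OHT). Each condition had 3 samples, numbered as replicates 1 to 3 in the labels, and the maintenance medium of all cells before starvation contained estradiol. The labels do not say whether the replicates were separate cultures, so the p-values measure the spread between these samples, which may be technical. E2 and 4OHT were compared with the same DMSO samples.

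MAP kinase cascades pass signals from growth factors and stress to the nucleus through ERK, JNK and p38, and the phosphatases end the signal. Transcription of several of them is itself switched on by the kinases they inactivate, which makes them feedback inhibitors. *Dusp1*, *Dusp2*, *Dusp4* and *Dusp5* encode inducible nuclear enzymes, *Dusp6* and *Dusp7* encode cytoplasmic enzymes that act mainly on ERK, and *Dusp8*, *Dusp10* and *Dusp16* encode enzymes that act mainly on JNK and p38. *Dusp14* encodes a small atypical member that lacks the kinase-binding domain of the others. In estrogen target tissues, MAP kinase activity and estrogen receptor signaling are known to affect each other.

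The sequences before the start sites of *Dusp1* and *Dusp2*, the members with the highest E2 values relative to DMSO, and of *Dusp6*, the member with the lowest, are shown because these 3 genes carry the comparisons that follow. Each is the 250 bases upstream of the RefSeq start site in GRCm38.p6, written 5′ to 3′ on the strand of the gene. *Dusp1* lies on the minus strand, and its sequence covers chr17:26508473-26508722. *Dusp2* and *Dusp6* lie on the plus strand, with sequences at chr2:127335909-127336158 and chr10:99262981-99263230. Capitals mark the cyclic AMP response element (TGACGTCA), the E-box (CACGTG) and the single arm of the estrogen response element (GGTCA), each on either strand.
Dusp1: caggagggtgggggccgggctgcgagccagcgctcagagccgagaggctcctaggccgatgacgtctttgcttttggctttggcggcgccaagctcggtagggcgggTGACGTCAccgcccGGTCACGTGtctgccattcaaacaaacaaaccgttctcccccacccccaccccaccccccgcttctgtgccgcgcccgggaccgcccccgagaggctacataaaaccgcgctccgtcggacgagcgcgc
Dusp2: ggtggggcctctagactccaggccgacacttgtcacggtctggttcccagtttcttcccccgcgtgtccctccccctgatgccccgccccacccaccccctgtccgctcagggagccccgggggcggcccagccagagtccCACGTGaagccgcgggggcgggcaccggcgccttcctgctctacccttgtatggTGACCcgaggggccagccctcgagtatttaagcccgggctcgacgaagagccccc
Dusp6: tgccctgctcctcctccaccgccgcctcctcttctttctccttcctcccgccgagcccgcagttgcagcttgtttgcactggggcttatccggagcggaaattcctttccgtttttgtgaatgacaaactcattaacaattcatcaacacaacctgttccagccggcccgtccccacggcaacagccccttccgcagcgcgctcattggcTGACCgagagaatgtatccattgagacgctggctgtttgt

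RefSeq gave such a sequence for 9 of the 10 genes. The cyclic AMP response element stood once in *Dusp1*, from -143 to -136 relative to the start, and in *Dusp8* from -107 and from -63, against 1.55% of all 32851 promoter sequences of this length. *Dusp1* and *Dusp2* each held an E-box, starting at -126 and -109, and no other member did, against 6.02% of all promoters. In *Dusp1* the E-box overlapped the single arm of the estrogen response element, which spans -129 to -125. This arm was present in 7 of the 9 genes searched and in 35.2% of all promoters, and the full estrogen response element, a palindrome of both arms with 3 bases between them, was found in 0 of the 9 and in 0.0639% of all promoters. The CArG box, the motif of serum response factor, stood in *Dusp5* at -82 and -72 and in 1.47% of all promoters. The AP-1 site (TGANTCA), the ETS site (CCGGAAG) and the NF-kappaB site were found in 0 of the 9, against 6.75%, 6.91% and 3.9% of all promoters, and the GC box (GGGCGG) in 7 of the 9 against 32.7%. The GC content was 68.4% in *Dusp1*, 70.4% in *Dusp2* and 56.4% in *Dusp6*, and the median over all promoters was 52.4%. A match is a run of letters in this window and no evidence of binding.

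The values are FPKM, the fragments of a gene scaled to the length of its transcript and to the depth of the library, so levels of different genes can be compared per length. The size of a single read in FPKM gave approximate depths of 32500000 to 51300000 mapped reads per sample, inferred and not counted. By the same estimate 180 to 405 reads lay behind *Dusp10*, the least covered member. Its counting error alone would then be 7.45% in its lowest sample. For the other 9 genes the lowest sample had about 790 reads or more. Of the 8 genes listed for secretory oviduct epithelium, *Pax8* and the keratins *Krt7*, *Krt8*, *Krt18* and *Krt19* were abundant. The secretory marker *Ovgp1* was low and went against the sum of its list, at 2.24 ± 0.330 FPKM in DMSO and 1.65 ± 0.312 in E2 (SD, n = 3 each), and the epithelial genes *Epcam* and *Cdh1* were under 1 FPKM in all samples. The 8 genes of this list, most of the sum being keratins, summed to 1415 to 1558 FPKM in DMSO, 2322 to 2562 in E2 and 1473 to 1673 in 4OHT. The ciliated markers summed to 13.7 to 17.7 FPKM in E2 and to more than that in every sample of DMSO and 4OHT, at most 20.6, with *Dnaic1* and *Dynlrb2* under 1 FPKM in all samples and *Foxj1* at 14.9 ± 1.20 in DMSO, 11.2 ± 2.06 in E2 and 15.1 ± 0.675 in 4OHT (SD, n = 3 each). *Rsph1*, another ciliated marker, went the other way, at 3.10 ± 0.112 in DMSO and 3.68 ± 0.170 in E2. Of the fibroblast, immune and endothelial markers, 2 of 6, 1 of 6 and 1 of 4 reached 1 FPKM in any sample. The secretory and ciliated sums moved with E2, carried by the keratins and by *Foxj1*, and their part in the results was not tested. In bulk RNA, fewer cells of a type and less RNA per cell cannot be told apart.

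Replicate 1 stood apart in all 3 conditions. The estrogen target *Pgr* had an FPKM of 9.58 in DMSO replicate 1 against 1.36 and 1.16 in replicates 2 and 3, and *Greb1* 14.3 against 2.58 and 2.30. In E2 the *Pgr* values were 38.1, 21.1 and 15.9, above DMSO in each replicate. Samples with the same replicate number deviated together from their condition means over 11122 genes, with correlations of 0.454 to 0.801 in all 9 pairs, so the numbers pair the samples. For each comparison the adjusted p is therefore given from the fit without the replicate number and, where it differs in outcome, with the number as a block. Adjusted p-values come from limma on log2(FPKM + 1) over all tested rows with Benjamini-Hochberg adjustment, and called means an adjusted p under 0.05. The members were chosen by symbol after their FPKM in E2, DMSO and 4OHT was known. For every contrast, also 4OHT against DMSO, the values below therefore describe the response. These p-values only place each gene within the table. An exact permutation test of 3 against 3 samples cannot give a two-sided p under 0.1 and was not used.

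In the solvent control the member levels spanned a wide range. *Dusp14* was the highest at 34.4 ± 5.15 FPKM (SD, n = 3), next to *Dusp1* at 33.8 ± 7.58, and these did not differ beyond their spread. The lowest *Dusp1* value also overlapped *Dusp4*, the next in order. It stood at 22.4 ± 6.38, *Dusp5* at 18.9 ± 3.62 and *Dusp6* at 18.3 ± 3.04, 3 neighbours with overlapping values. Below them stood *Dusp16* at 15.2 ± 0.929, which overlapped *Dusp6*, and *Dusp2* at 14.2 ± 1.51, which overlapped *Dusp16*. *Dusp7* at 10.2 ± 1.51 lay under every *Dusp2* value and above every value of *Dusp8*, at 8.87 ± 0.317. *Dusp10* was the lowest at 2.33 ± 0.442, with each of its values under every value of the other 9 genes. In E2, *Dusp1* was at the head of the order and *Dusp2* above *Dusp4*, *Dusp5* and *Dusp6*, whereas in 4OHT the leading members were *Dusp1* and *Dusp14*, as in DMSO.

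**Figure D1:**
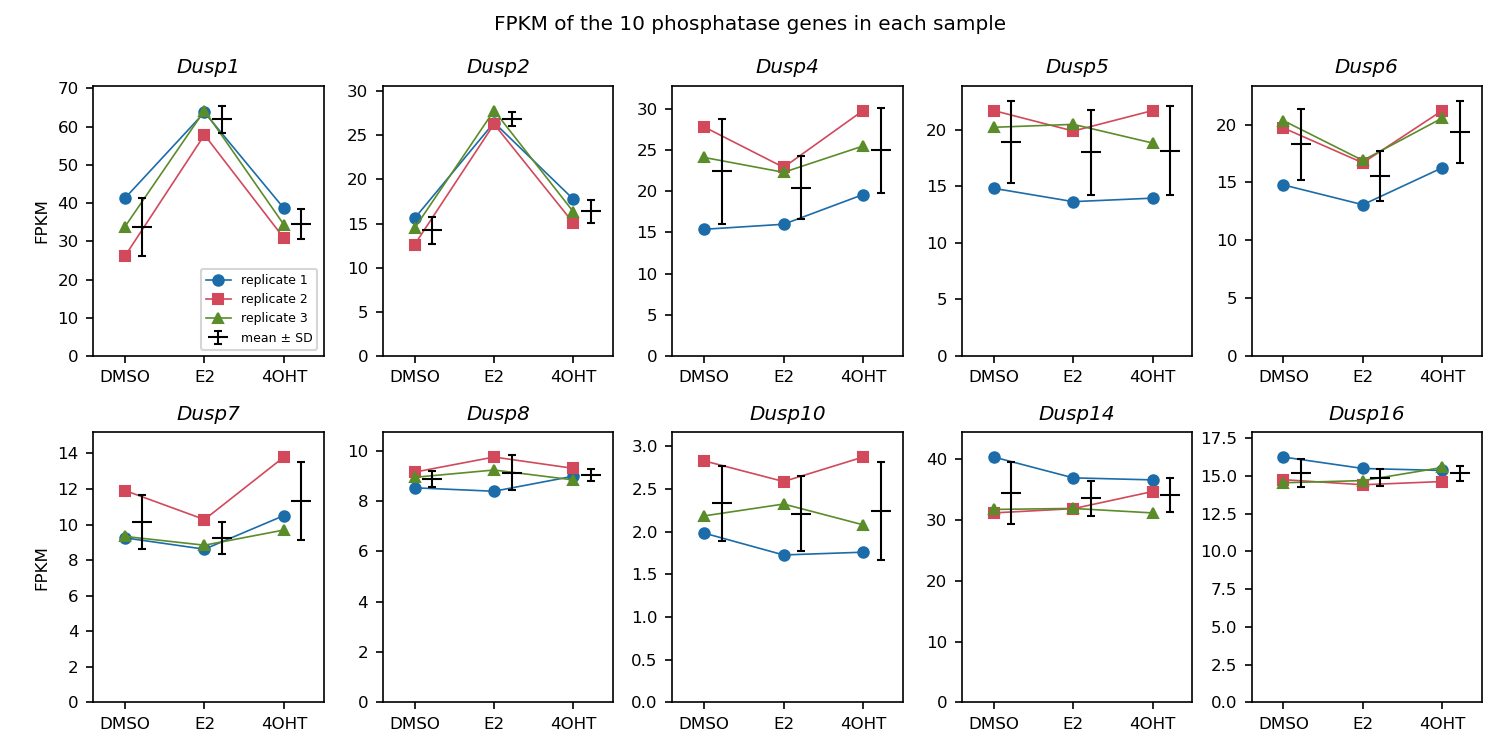
FPKM (vertical axis, from 0, with its own scale in each panel) of the 10 phosphatase genes under DMSO, E2 and 4OHT. Points are samples, lines join samples with the same replicate number, and black bars are the mean ± SD of 3 samples. *Dusp1* and *Dusp2* peak in E2 in all 3 replicates, and replicate 1 is the lowest for *Dusp4*, *Dusp5*, *Dusp6* and *Dusp10*.

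Of the inducible nuclear enzymes, *Dusp1* and *Dusp2* were higher with E2 and *Dusp4* and *Dusp5* showed no such shift. *Dusp1*, which inactivates ERK, JNK and p38 and is an immediate-early gene, had an FPKM of 41.3, 26.2 and 33.9 in DMSO replicates 1 to 3 and of 63.7, 57.9 and 64.2 in E2. The lowest E2 sample was above the highest DMSO sample. The mean was 33.8 ± 7.58 in DMSO and 61.9 ± 3.55 in E2 (SD, n = 3 each), a ratio of 1.83. The log2 fold change was 0.88 with an adjusted p of 0.0503, so *Dusp1* missed the threshold in the fit without the block. With the block the standard error was 0.0809 and the adjusted p 0.000399. Leaving out DMSO replicate 1 alone, without the block, gave 0.0167. The differences within replicates 1 to 3 were 0.61, 1.12 and 0.90, with the smallest in replicate 1, whose DMSO value was the highest.

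*Dusp2*, which encodes a nuclear phosphatase best known in activated immune cells, had an FPKM of 15.6, 12.6 and 14.5 in DMSO and of 26.5, 26.3 and 27.8 in E2. The groups did not overlap, and the E2 samples lay within a narrow range. The mean went from 14.2 ± 1.51 to 26.9 ± 0.839 (SD, n = 3 each), a ratio of 1.89. The log2 fold change of 0.88 had a standard error of 0.0846 and an adjusted p of 0.00571, and 6.96e-05 with the block. The differences within replicates were 0.73, 1.00 and 0.90, in the same order over the replicates as those of *Dusp1*. Over the 9 samples the log2(FPKM + 1) of *Dusp1* and *Dusp2* had a Pearson correlation of 0.970, which describes samples that share 3 conditions and 3 replicate numbers.

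*Dusp4*, an enzyme that is induced by ERK activity and is closely related to *Dusp1* and *Dusp2*, read 15.4, 27.8 and 24.1 FPKM in DMSO and 16.0, 22.9 and 22.3 in E2. The groups overlapped, and replicate 1 was low in both. The log2 fold change was -0.11 with a standard error of 0.234 and an adjusted p of 0.892. *Dusp5*, a nuclear phosphatase with a strong preference for ERK, read 14.8, 21.7 and 20.2 FPKM in DMSO and 13.6, 19.9 and 20.5 in E2. Its log2 fold change was -0.07, with an adjusted p of 0.923. Neither gene was called with the block, where the standard error of *Dusp4* was 0.0631 and the adjusted p-values were 0.264 and 0.327.

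*Dusp6*, the cytoplasmic ERK phosphatase whose transcript is widely used as a readout of ERK activity, had an FPKM of 14.8, 19.7 and 20.3 in DMSO and of 13.1, 16.7 and 16.9 in E2. E2 was below DMSO within every replicate, although the groups overlapped because replicate 1 was low in both. The mean went from 18.3 ± 3.04 to 15.6 ± 2.15 (SD, n = 3 each), a ratio of 0.851. The log2 fold change was -0.22 with an adjusted p of 0.638 without the block and 0.00658 with it, and the within-replicate differences of -0.17, -0.23 and -0.25 lay close together. *Dusp7*, its close relative, read 9.25, 11.9 and 9.33 FPKM in DMSO and 8.61, 10.3 and 8.84 in E2. It was also lower in E2 within each replicate, by -0.09, -0.19 and -0.07, but its log2 fold change of -0.12 was not called in either fit, with adjusted p-values of 0.777 and 0.151.

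The members that act on JNK and p38 and the atypical member lay near 0 in this contrast. *Dusp8* had means of 8.87 ± 0.317 FPKM in DMSO and 9.12 ± 0.686 in E2, *Dusp10* of 2.33 ± 0.442 and 2.21 ± 0.441, and *Dusp16* of 15.2 ± 0.929 and 14.9 ± 0.560. Their log2 fold changes were 0.03, -0.05 and -0.03. *Dusp14* had 34.4 ± 5.15 and 33.6 ± 2.92 FPKM and a log2 fold change of -0.03. None of these 4 genes was called with or without the block, which does not show that their levels were equal.

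For E2 against DMSO the fit without the block called 1 of the 10 members, *Dusp2*, against 0.583% of all tested genes. With the block it called 3, against 18.5% of all tested genes. Of these, *Dusp1* and *Dusp2* were higher, as were 12.0% of all genes, and *Dusp6* was lower, as were 6.43%. The groups did not overlap for 2 members, both higher in E2, and 9.16% of all genes were higher in this way. E2 was higher in all 3 replicates for 2 members and lower in all 3 for 2, against 28.4% and 24.5% of all genes. The median log2 fold change of the members was -0.04 and that of all tested genes -0.00, with 3 members positive and 7 negative. These counts rest on the contrast for which the genes were chosen.

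**Figure D2:**
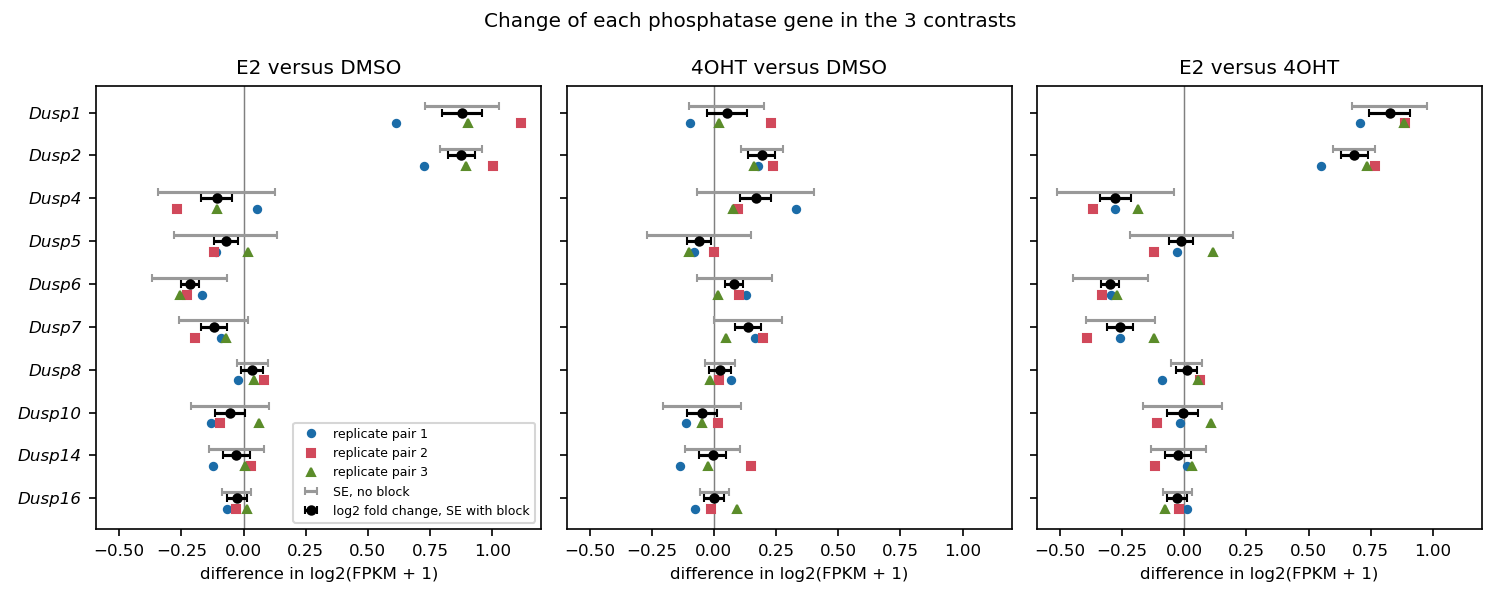
Log2 fold change of each phosphatase gene (horizontal axis, difference in log2(FPKM + 1)) for E2 against DMSO, 4OHT against DMSO and E2 against 4OHT. Black points with black bars are the fitted change and its standard error with the replicate block, gray bars the standard error without it, and colored points the differences within each replicate. *Dusp1* and *Dusp2* stand near 0.88 for E2 against DMSO, and the other 8 genes lie between -0.22 and 0.03.

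With 4OHT no member was called. *Dusp1* had an FPKM of 38.6, 30.8 and 34.4 in 4OHT, within the range of its DMSO values, and a log2 fold change of 0.05 with an adjusted p of 1.00 without the block and 0.761 with it. *Dusp2* had an FPKM of 17.7, 15.1 and 16.3. It was above DMSO in each replicate, by 0.18, 0.24 and 0.16 on the log2 scale, but the groups overlapped, with means of 14.2 ± 1.51 in DMSO and 16.4 ± 1.35 in 4OHT. Its log2 fold change of 0.19 had an unadjusted p of 0.0512 and an adjusted p of 1.00 in limma's fit without the block, and 0.00766 and 0.303 with it. This increment did not pass the adjustment in either fit.

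*Dusp4*, *Dusp6* and *Dusp7* were also above DMSO in each 4OHT replicate, although their groups overlapped. The FPKM of *Dusp4* was 19.6, 29.8 and 25.5 in 4OHT, with within-replicate differences of 0.33, 0.10 and 0.08 and a log2 fold change of 0.17. *Dusp6* had 16.3, 21.2 and 20.6 and a log2 fold change of 0.08, and *Dusp7* had 10.5, 13.8 and 9.69 and a log2 fold change of 0.14. None of the 3 was called, with an adjusted p of 0.333 for *Dusp4* and 0.337 for *Dusp7* with the block. *Dusp5* had means of 18.9 ± 3.62 FPKM in DMSO and 18.2 ± 3.92 in 4OHT, which gave a log2 difference of -0.06. The log2 fold changes of *Dusp8*, *Dusp10*, *Dusp14* and *Dusp16* were 0.02, -0.05, -0.00 and 0.00.

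For 4OHT against DMSO, limma without the block called 0 of the 10 members and 0 of 11320 genes, or 0% of all tested genes, while 299 genes, 2.64%, had an unadjusted p under 0.05. With the block it called 0 members and 8 genes, 0.0708%. For 4 members 4OHT was higher in all 3 replicates, against 30.5% of all genes. The median was 0.04 for the members and 0.02 for all genes, so the values of 7 positive members stand on a table that itself leaned to 4OHT. Under scaling to equal totals, 4 members were positive, and *Dusp1*, *Dusp8* and *Dusp16* changed sign.

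Comparing E2 directly with 4OHT gives the difference between the responses to the ligands, at the doses of 1 nM and 100 nM that were used. Since the members were chosen with these values known, the p-values only place each gene within the table. *Dusp1* was higher in E2 with no overlap, at 61.9 ± 3.55 against 34.6 ± 3.90 FPKM (SD, n = 3 each), and with a log2 fold change of 0.83. Its adjusted p was 0.0870 without the block and 0.000725 with it. *Dusp2* was likewise higher with no overlap, at 26.9 ± 0.839 against 16.4 ± 1.35, with a log2 fold change of 0.68 and adjusted p-values of 0.0255 and 0.000297. Both were higher in E2 within each replicate, *Dusp1* by 0.71, 0.89 and 0.88 and *Dusp2* by 0.55, 0.77 and 0.73. The call of *Dusp2* in the fit without the block was lost when DMSO replicate 3 or any single E2 or 4OHT sample was left out, with adjusted p-values of up to 0.120. Its log2 fold change stayed between 0.63 and 0.74. Without E2 replicate 1 or 2, no gene at all was called, with smallest adjusted p-values of 0.0561 and 0.07. The same held without 4OHT replicate 1 or 3, at 0.0558 and 0.0665.

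The cytoplasmic ERK phosphatases *Dusp6* and *Dusp7*, and *Dusp4*, lay lower in E2 than in 4OHT. *Dusp6* read 13.1, 16.7 and 16.9 FPKM in E2 against 16.3, 21.2 and 20.6 in 4OHT, a ratio of means of 0.804 and differences within replicates of -0.30, -0.33 and -0.27. The log2 fold change of -0.30 had an adjusted p of 0.463 without the block and 0.00197 with it. *Dusp4*, at -0.28, had an adjusted p of 0.617 without the block and 0.0210 with it, and *Dusp7*, at -0.26, had 0.476 and 0.0143. All 3 genes were lower within each replicate and all 3 had overlapping groups, so their calls rest on the pairing of the samples. *Dusp5*, the other ERK-selective enzyme, had a log2 fold change of -0.01, and *Dusp8*, *Dusp10*, *Dusp14* and *Dusp16* had 0.01, -0.01, -0.02 and -0.03.

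For E2 against 4OHT the fit without the block called 1 member, against 0.327% of all tested genes, and the fit with it called 5, against 21.4%. Of the 5, *Dusp1* and *Dusp2* were higher in E2, where 10.6% of all genes were called, and *Dusp4*, *Dusp6* and *Dusp7* were lower, where 10.8% were. The groups did not overlap for 2 members, both higher in E2, against 8.45% of all genes. For 3 members E2 was lower in each replicate, against 31.2% of all genes. These counts, too, rest on values that were known when the genes were chosen. The median log2 fold change was -0.02 for the members and -0.01 for all tested genes. Of 10 genes used in every cell, 9 were negative, with a median of -0.09, and *Hprt* was called as lower in E2 with the block. In the fit without the block 3 members were positive, and under scaling to equal totals 7 were.

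How far a member followed the replicate number varied between genes. *Dusp4*, *Dusp5*, *Dusp6* and *Dusp10* had their lowest value in replicate 1 under all 3 conditions, as did 20.0% of all genes, and *Dusp14* had its highest there, as did 22.4%. For *Dusp4*, replicate 1 lay 0.72, 0.47 and 0.47 below the mean of the other replicates on the log2 scale in DMSO, E2 and 4OHT. For *Dusp5* the gaps were 0.47, 0.53 and 0.50, larger than any of its differences between conditions. *Dusp1* behaved otherwise, with replicate 1 above the mean of the others by 0.46 in DMSO, by 0.06 in E2 and by 0.24 in 4OHT. Without replicate 1 in any condition and without the block, the log2 fold change of *Dusp1* for E2 against DMSO was 1.01 with an adjusted p of 0.0273, that of *Dusp2* 0.95 with 0.00843, and that of *Dusp6* -0.24 with 0.172. With the block and without replicate 1, *Dusp6* had an adjusted p of 0.0291. In that fit, for E2 against 4OHT, *Dusp4* had 0.0426 and *Dusp6* 0.0208, whereas *Dusp7*, at 0.0762, was no longer called.

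**Figure D3:**
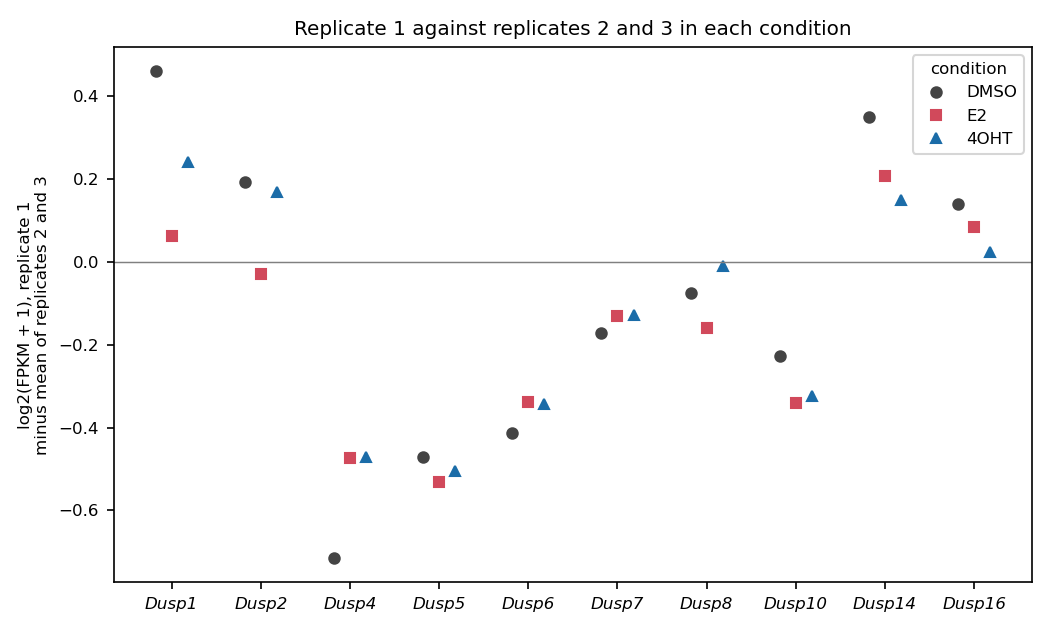
Replicate 1 minus the mean of replicates 2 and 3 in log2(FPKM + 1) (vertical axis) for each phosphatase gene, in DMSO, E2 and 4OHT. Points are conditions, and points under 0 mark genes lower in replicate 1. *Dusp4*, *Dusp5*, *Dusp6*, *Dusp7*, *Dusp8* and *Dusp10* lie below 0 and *Dusp14* and *Dusp16* above 0 in all 3 conditions.

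Among the samples, *Dusp4*, *Dusp5* and *Dusp6* varied together, with Pearson correlations over the 9 samples of 0.925 for *Dusp4* with *Dusp6*, 0.887 for *Dusp4* with *Dusp5* and 0.809 for *Dusp5* with *Dusp6*. *Dusp1* and *Dusp6* had a correlation of -0.736. These points share conditions and replicate numbers, and both the low replicate 1 and the treatment enter the values. Among 8520 genes with a mean of at least 5 FPKM and no listed 0, the genes most like *Dusp1* over the 9 samples were *4930523C07Rik*, the keratin *Krt7* and the small heat shock protein gene *Cryab*, with correlations of 0.985, 0.985 and 0.983. Most like *Dusp2* were *Plac8* at 0.986, *Errfi1*, which encodes an inhibitor of the EGF receptor, at 0.983 and *Gpx3*, which encodes an extracellular glutathione peroxidase, at 0.981. Most like *Dusp6* were *Chsy1*, a chondroitin synthase gene, at 0.991, *Cbr3* at 0.988 and the extracellular matrix gene *Fbln2* at 0.987.

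The rest of the MAP kinase pathway was described with 6 lists of genes, beside the 18.5% and 21.4% of all tested genes called with the block for E2 against DMSO and 4OHT and the median of -0.00 for E2 against DMSO. Of 19 other dual-specificity phosphatases, 13 passed the filter, 0 were called for E2 against DMSO without the block, and 4 with it, with a list median of 0.05. Of these, *Dusp3*, which encodes a small phosphatase of ERK and JNK, rose from 45.1, 36.1 and 33.7 FPKM to 56.2, 46.2 and 42.7 (log2 fold change 0.33), and the slingshot genes *Ssh1* and *Ssh3*, whose products act on cofilin, rose as well. *Dusp9*, the third cytoplasmic ERK phosphatase beside *Dusp6* and *Dusp7*, read 4.42, 7.98 and 6.37 FPKM in DMSO and 3.86, 5.66 and 5.37 in E2, and its log2 fold change of -0.27 was called with the block (adjusted p 0.0291) and not without it (0.688). Like *Dusp6* and *Dusp7*, it was lower in E2 within each replicate. For E2 against 4OHT, 4 of the 13 were called with the block, *Dusp3* and *Ssh1* as higher and *Dusp9* and *Dusp15* as lower.

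The kinases stand beside 0.583% of all tested genes called for E2 against DMSO without the block and 18.5% with it. Of 13 MAP kinases 11 were tested, with 0 called for E2 against DMSO without the block and 2 with it, the atypical *Mapk4* as higher (log2 fold change 0.39) and the p38 gene *Mapk12* as lower (-0.23). The atypical kinase gene *Mapk15*, at -0.21, was not called in either fit. Of 10 tested MAP kinase kinases and Raf kinases, 0 were called without the block and 1, *Map2k1* (0.18), with it. Between E2 and 4OHT the block called *Mapk4* and *Map2k7*, which encodes an activator of JNK, as higher in E2, at 0.32 and 0.15. Of 8 other phosphatases of MAP kinases, 6 were tested and 0 were called in either fit. The medians of these 3 lists were 0.01, 0.03 and 0.07.

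Of 12 genes listed as ERK pathway feedback inhibitors, 11 were tested, and *Ier3* and *Errfi1* were called for E2 against DMSO and against 4OHT in both fits. Without the block, 0.583% and 0.327% of all tested genes were called in these contrasts. Whether each listed gene is induced by ERK in these cells was not tested. *Ier3* stands in this list as a gene induced by ERK, although its product is known to prolong ERK activity rather than to inhibit it. It had an FPKM of 97.5, 96.6 and 104.9 in DMSO, 158.6, 161.6 and 170.6 in E2 and 108.7, 110.3 and 107.7 in 4OHT. *Errfi1* had 63.3, 53.8 and 60.1 in DMSO, 91.8, 90.9 and 96.7 in E2 and 64.9, 64.9 and 69.9 in 4OHT. The samples of E2 stood above all others for both genes, as they did for *Dusp1* and *Dusp2*. The log2 fold changes for E2 against DMSO were 0.71 and 0.65, with adjusted p-values of 0.00216 and 0.00758. With the block *Pea15a* and the receptor pathway inhibitor *Spry2* were called as well, at 0.15 and 0.25. The list median was 0.11, with 10 of 11 positive, against 5586 of all 11320 tested genes. With the block 4 of the 11 were called for E2 against DMSO and 2 for E2 against 4OHT, against 18.5% and 21.4% of all tested genes.

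Of 18 transcripts known to respond to ERK, 16 were tested. For E2 against DMSO, *Fos* and *Atf3* were called without the block, with log2 fold changes of 1.28 and 0.48 and adjusted p-values of 0.0271 and 0.00889. Of all tested genes, 0.583% were called in that fit. *Fos* had an FPKM of 3.48, 2.29 and 3.78 in DMSO, 9.90, 7.11 and 10.5 in E2 and 4.46, 3.60 and 5.13 in 4OHT. With the block 11 of the 16 were called, in both directions, against 18.5% of all tested genes. The 6 that rose were *Atf3*, *Fos*, *Fosb*, *Egr1*, *Jun* and *Phlda1*, of which all but *Phlda1* encode immediate-early transcription factors. The 5 that fell were *Etv4*, *Myc*, *Fosl1*, *Epha2* and *Ccnd1*, of which *Ccnd1*, encoding cyclin D1, went from 111.5, 271.2 and 191.6 FPKM to 83.2, 160.6 and 140.7. The list median was -0.06, with 7 positive and 9 negative. For 4OHT against DMSO, 7100 of all 11320 tested genes were positive, with a median of 0.02. Of 10 genes used in every cell 9 were positive, with a median of 0.08. In that contrast 0 of the 16 ERK-responsive transcripts were called in either fit, with 15 positive and a median of 0.08. Between E2 and 4OHT 1 was called without the block, *Atf3* as higher in E2, against 0.327% of all tested genes. With the block 11 were called, against 21.4%, with 4 higher in E2 and 7 lower. The higher were *Fos* at 0.91, *Fosb* at 0.61, *Atf3* at 0.43 and *Egr1* at 0.24. The lower were *Ccnd1* at -0.62, *Fosl1* at -0.50, *Myc* at -0.34, *Epha2* at -0.20 and the AP-1 gene *Junb* at -0.22. Also lower were *Etv4* and *Etv5*, genes for ETS factors that are read out beside *Dusp6*, at -0.42 and -0.30.

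**Figure D4:**
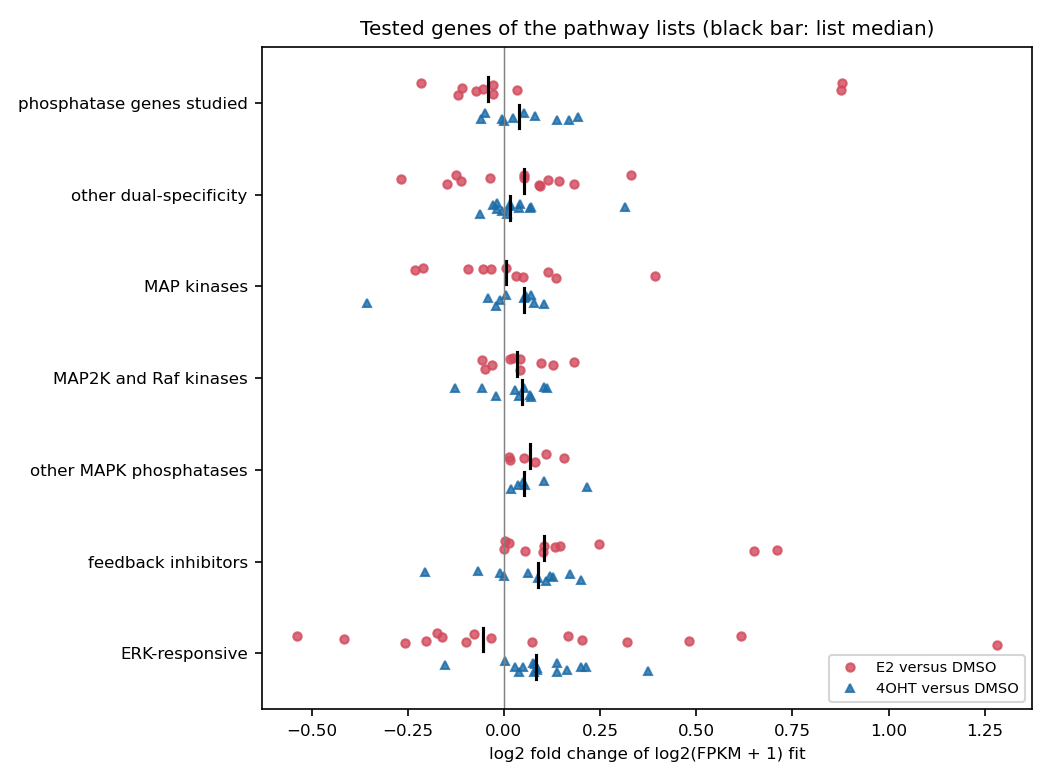
Log2 fold change (horizontal axis, from the fit on log2(FPKM + 1)) of the tested genes of each list, for E2 against DMSO (circles) and 4OHT against DMSO (triangles), with the list median as a black bar. *Dusp1* and *Dusp2* stand at 0.88 in the uppermost list, *Ier3* and *Errfi1* at 0.71 and 0.65 in the list of feedback inhibitors, and *Fos* at 1.28 and *Ccnd1* at -0.54 mark the ends of the ERK-responsive list.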

How the data were processed

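RNA was sequenced from 9 samples, 3 each with DMSO, E2 and 4OHT, as oligo-dT, directional, single-end libraries. The authors aligned the reads to mm10 with TopHat 2.0.8b and computed FPKM for known genes of a UCSC annotation with the Cufflinks package (Cuffdiff 2.1.1), and these deposited FPKM, 1 value per gene row and sample, were used. Whether a further scaling between libraries entered them is not given in the sources used here. In 266 expressed rows (median of nonzero values of at least 5 FPKM) a value was listed at exactly 0 in some sample, also in *Hprt*. Such zeros can be failed estimates and were set apart as missing. No member had one. The members and the gene lists were chosen with earlier results of these data known.

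Rows that reached 1 FPKM in 3 or more samples entered the test with limma 3.58.1 (R 4.3.3), with a trend, on log2(FPKM + 1), which understates the change of low genes. All 9 samples entered 1 fit with a coefficient per condition, and p-values were adjusted by Benjamini-Hochberg within each contrast. The fit was run on simulated data with independent noise for each sample. These data held no replicate effect, so they do not test either fit on paired samples. A fit that also held the replicate number, as a block, was planned as an alternative. The numbers come from the labels, which do not say what they mark, and their pairing was checked by the correlation of deviations from the condition means, 0.454 to 0.801 for same-numbered samples and -0.58 to 0.05 for the others. Other alternatives were scaling, pseudocount, filter, the treatment of zeros, the samples in the fit, a robust prior and leaving out each sample. Leaving out replicate 1 in all conditions was added after the data were seen. All 10 members were named, and other genes of the pathway lists where they passed the threshold with or without the block. *Mapk15*, which did not pass, was named for the size of its log2 fold change. Approximate depths came from the steps between low FPKM values of genes with a single transcript, and counting errors from them cover counting only. Promoter sequences are RefSeq GRCm38.p6.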

Additional observations from a re-analysis of the deposited data

How the results depend on the processing

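With the replicate block, the genes called went from 66 to 2086 for E2 against DMSO, from 0 to 8 for 4OHT against DMSO and from 37 to 2420 for E2 against 4OHT, and the members called from 1 to 3, from 0 to 0 and from 1 to 5. With the block and exact zeros kept as values, 1702 and 1840 genes and 3 and 5 members were called for the contrasts of E2, and with zeros kept and no block 18 genes for E2 against 4OHT. With no filter on low values 37 and 9 genes and, for E2 against 4OHT, 0 members were called, with equal FPKM totals 39 genes for E2 against DMSO, and with only the 6 samples compared 14 and 13 genes and, for E2 against 4OHT, 2 members. With an FPKM of at least 5 in 3 samples, *Dusp1* (adjusted p 0.0448 for E2 against DMSO) was called beside *Dusp2*, 2 members. Without replicate 1 in all conditions, 181 and 94 genes were called and 2 members for E2 against DMSO. With the block as well, 1345, 7 and 981 genes and 3, 0 and 4 members were called in the 3 contrasts.

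Leaving out single samples gave 13 to 87 genes and 1 to 2 members for E2 against DMSO, 0 of either for 4OHT against DMSO, and 0 to 56 genes and 0 to 2 members for E2 against 4OHT. *Dusp2* was called for E2 against DMSO in 9 of 9 such fits (adjusted p 0.00445 to 0.0377) and *Dusp1* in 1, without DMSO replicate 1 (0.0167 to 0.214). For E2 against 4OHT, *Dusp2* and *Dusp1* were each called in 2 of the 9, without DMSO replicate 1 or 2, so that leaving out DMSO replicate 3 or any E2 or 4OHT sample lost the call of *Dusp2* (0.0172 to 0.120). A group left with 2 samples was taken to vary like the others.

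Every change of sign was in a value that was not called in the fit without the block. For 4OHT against DMSO, *Dusp1* was -0.0061 with equal totals, *Dusp8* -0.0056 and -0.0294 and *Dusp16* -0.0304 and -0.0551 with upper-quartile scaling and equal totals. For E2 against 4OHT, *Dusp10* was 0.0007 with upper-quartile scaling, and with equal totals *Dusp5*, *Dusp10*, *Dusp14* and *Dusp16* were 0.0226, 0.0201, 0.0102 and 0.0047. Without replicate 1 in all conditions, *Dusp14* was 0.019 for E2 and 0.0622 for 4OHT against DMSO, also with the block. Over the single samples left out, the log2 fold changes that turned spanned, for E2 against DMSO, -0.3464 to 0.0609 (*Dusp4*), -0.2286 to 0.1062 (*Dusp5*), -0.0099 to 0.0876 (*Dusp8*), -0.1382 to 0.0595 (*Dusp10*), -0.0976 to 0.0877 (*Dusp14*) and -0.0558 to 0.0193 (*Dusp16*). For 4OHT against DMSO they spanned -0.1145 to 0.2055 (*Dusp1*), -0.0702 to 0.3371 (*Dusp4*), -0.2171 to 0.1084 (*Dusp5*), -0.0558 to 0.196 (*Dusp6*), -0.0013 to 0.2464 (*Dusp7*), -0.0009 to 0.0447 (*Dusp8*), -0.1846 to 0.0602 (*Dusp10*), -0.069 to 0.1122 (*Dusp14*) and -0.027 to 0.048 (*Dusp16*). For E2 against 4OHT they spanned -0.1797 to 0.166 (*Dusp5*), -0.0345 to 0.063 (*Dusp8*), -0.1141 to 0.1306 (*Dusp10*) and -0.0932 to 0.0255 (*Dusp14*). Of 627 alternative values for single members, 545 kept direction and side of the threshold, 51 changed sign, 23 newly passed and 8 no longer passed. Beyond the fits that hold fewer samples, the cause of these shifts was not tested.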
